A study of Mus musculus with 12 samples.

Results

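The genes described here are 10 receptor tyrosine kinases that have been described in melanoma cells adapting to drugs against the MAPK pathway: Pdgfra, Pdgfrb, Egfr, Erbb2, Erbb3, Igf1r, Met, Axl, Kit and Fgfr1. They were taken by name, as every probe set annotated to 1 of these genes alone, which gave 29 of the 34945 single-gene probe sets on the array and 10 of 18193 genes. Where a gene has several probe sets, the one with the highest mean stands for it, and the others are described beside it, though not for every comparison. A receptor tyrosine kinase sits in the cell membrane, binds a growth factor outside the cell and then phosphorylates tyrosines on its own tail and on its partner, where adaptors dock that pass the signal to RAS, RAF, MEK and ERK and to PI3K and AKT. ERK in turn switches on inhibitors that dampen these receptors. In melanoma, raised PDGFRβ, EGFR, ERBB3, IGF1R, MET or AXL has been described as a way around RAF or MEK inhibition, and KIT is a receptor that melanocyte precursors need for survival.

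The RNA came from C790 cells, a mouse melanoma line with mutant Nras, at day 20, on 3 arrays in each of 4 groups. Partially reprogrammed cells (+dox) carried a doxycycline-inducible lentiviral vector with Oct4, Sox2 and Klf4 and a second vector for the rtTA transactivator with mCherry, and were grown with doxycycline. They were treated for 72 h with trametinib, an allosteric MEK inhibitor, or with its solvent DMSO. Control cells (−dox) carried both vectors without induction and had the same treatments. The groups were therefore +dox trametinib, +dox DMSO, −dox trametinib and −dox DMSO. All 4 derive from 1 line, and the sources used here give neither the trametinib dose of the arrays nor whether the 3 arrays of a group were separate cultures, so that p-values measure the spread between these arrays, which may be technical. Values are log2 expression after RMA, a scale on which a difference of 1 is a doubling, and the arrays measure RNA, neither receptor protein nor its phosphorylation. A level read in a culture cannot tell fewer expressing cells from less RNA per cell.

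The labels of drug and cell state were set against other genes. All 9 measured ERK output genes fell with trametinib, in +dox and in −dox cells. Pou5f1 (Oct4) was 5.34 to 5.55 on the +dox DMSO arrays and 4.30 to 4.87 on the −dox DMSO arrays, but also 5.32 to 5.61 on the −dox trametinib arrays. Sox2 ran against the label, at 6.46, 5.64 and 5.51 in +dox DMSO cells, against 6.48, 8.07 and 7.65 in −dox DMSO cells, with no overlap (log2 change -1.53, limma adjusted p = 0.091). Klf4 differed by -0.15 (adjusted p = 0.8). Of the vector genes, Pou5f1 alone was thus called higher in +dox DMSO cells. A background level of 4.86 was set from 86 probe sets of smell, pheromone and taste receptors. Of 8 melanocyte markers, Tyr, Tyrp1, Dct, Mlana and Slc45a2 stayed under it in all 4 groups, while Mitf, Sox10 and Pmel were above it. All 5 endothelial markers stayed under it as well. Of 7 leukocyte markers, Ptprc, Lyz2 and Adgre1 stayed under it, and Cd3e, Cd68, Cd14 and Itgam were above it in at least 1 group. Itgam was 4.19, 6.90 and 5.72 in +dox DMSO cells, against 2.97, 3.21 and 3.26 in −dox DMSO cells (a rise of at least 0.74 log2 units over the background level, adjusted p = 0.014), and Cd14 fell by 1.42 (adjusted p = 0.042). The summed level of the 7 was 8.24 to 9.45 in +dox DMSO cells and 8.40 to 9.15 in −dox DMSO cells on the log2 scale, and the part of these markers in the receptor changes was not tested. −dox DMSO replicate 1 stood apart, with a root-mean-square deviation of 0.355 from its group mean over all genes against 0.157 to 0.28 on the others.

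Of the 10 receptors, 9 were above the background level in all 4 groups, and Kit was under it in all 4. The order of the group means differed from receptor to receptor. Pdgfra and Pdgfrb were highest in −dox DMSO cells, lower in −dox trametinib cells and lowest in the 2 +dox groups, whose arrays overlapped for both genes. Fgfr1 had its highest mean in −dox DMSO and its lowest in +dox DMSO cells, with the 2 trametinib groups between them. For Egfr the arrays of the 2 trametinib groups overlapped, as did those of +dox trametinib and −dox DMSO, and +dox DMSO was below all other groups. Erbb3 and Igf1r were arranged by drug rather than by dox: both DMSO groups were above both trametinib groups, and within each drug the +dox and −dox arrays overlapped. Met stood out by its low level in −dox DMSO cells, under the 3 other groups, which overlapped. Axl was highest in the DMSO groups, and Erbb2 had overlapping arrays between all neighbours in the order.

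**Figure D1:**
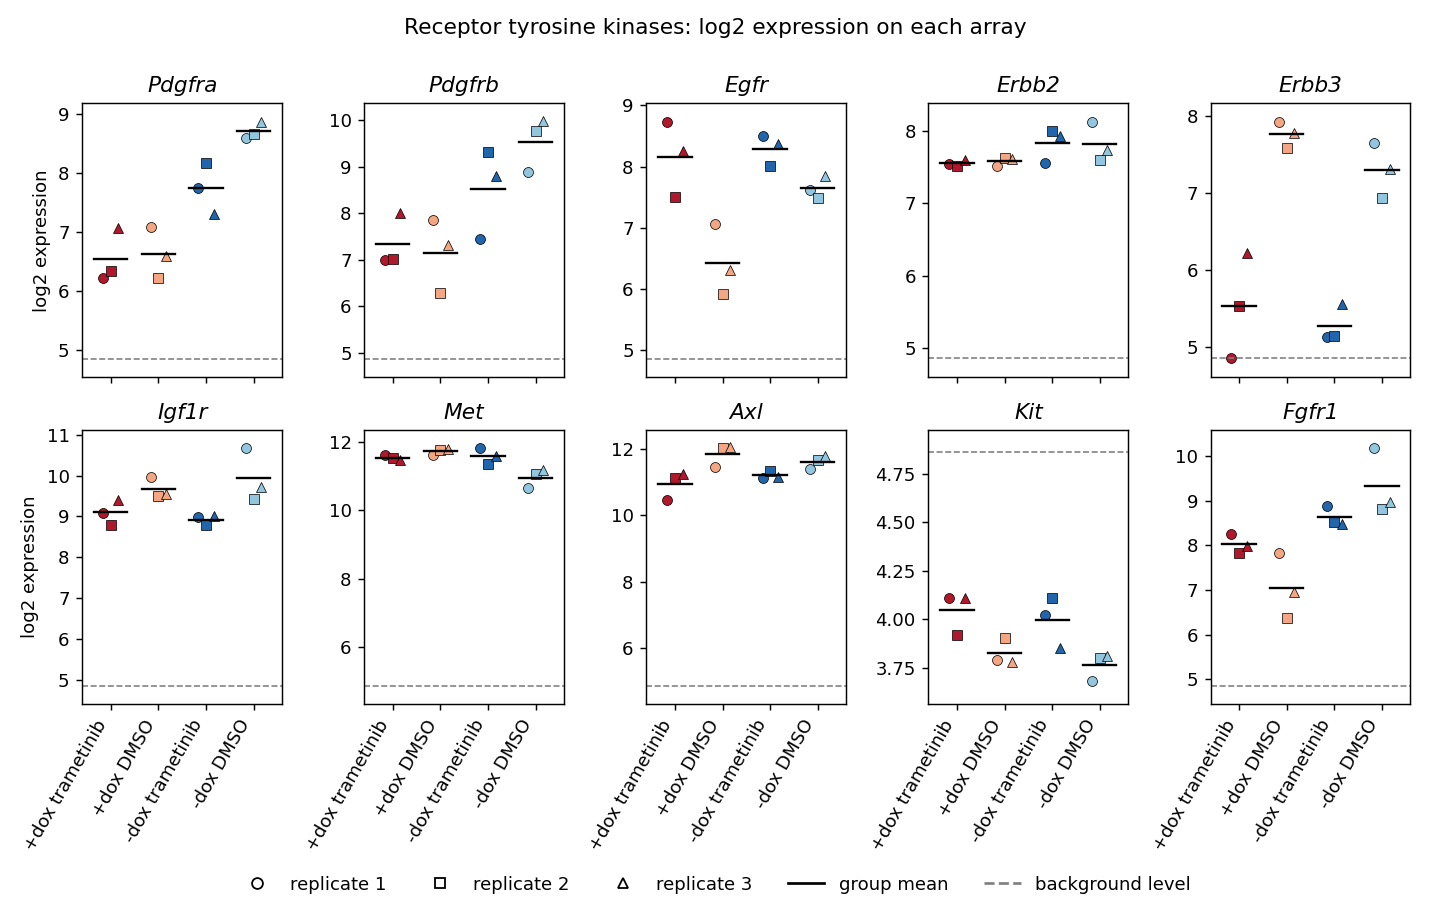
Log2 expression of the 10 receptors on each of the 12 arrays, by group (x axis), with a symbol per replicate, a bar at the group mean and a dashed line at the background level of 4.86. The y axis differs between panels and always includes the background level. Kit lies under the line in every group, Pdgfra and Pdgfrb are lowest in +dox cells, and Erbb3 is lowest in trametinib-treated cells.

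The first comparison asked which receptors differ between partially reprogrammed and control cells without drug. Pdgfra, Pdgfrb, Fgfr1 and Egfr fell and Met rose in +dox cells, 5 of 10 receptors with an adjusted p under 0.05 by limma, against 6.15% of all 18193 genes in this comparison. The median change of the 10 was -0.25, against 0.01 over all genes. As the receptors were named with results of these arrays known, this share is a description. The arrays of the 2 groups did not overlap for 5 of the 10 receptors, against 22.4% of all genes.

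The PDGF receptors, which bind platelet-derived growth factors and mark mesenchymal and neural crest cells, both fell. Pdgfra was 7.09, 6.22 and 6.60 on the +dox DMSO arrays, against 8.59, 8.66 and 8.87 on the −dox DMSO arrays, a log2 change of -2.07 (SE 0.28, limma adjusted p = 0.002), or 4.20-fold lower. Every +dox array lay more than 1 log2 unit below every −dox array. Its other probe sets, whose +dox means were under the background level, fell too, with measured log2 changes of -0.92 (adjusted p = 0.023) and -0.78 (adjusted p = 0.02), adjusted over all probe sets, and the mean of the 3 fell by 1.26 (adjusted p = 0.0022). Pdgfrb was 7.85, 6.29 and 7.31 in +dox DMSO cells, against 8.89, 9.77 and 9.98 in −dox DMSO cells, a log2 change of -2.40 (SE 0.53, limma adjusted p = 0.023), or 5.27-fold lower. The replicates of this gene spread more widely in both groups than those of Pdgfra, and the call was lost without −dox DMSO replicate 2 (adjusted p = 0.065), −dox DMSO replicate 3 (0.082), +dox DMSO replicate 2 (0.096) or +dox DMSO replicate 3 (0.072). The second probe set of Pdgfrb fell by 1.48 on the log2 scale (adjusted p = 0.046). Fibroblast markers moved with the PDGF receptors. Of 8 measured, Col1a1, Col3a1 and Dcn fell in +dox cells under DMSO, 0 rose and 5 did not pass, and the log2 of the summed level of all 8 was 8.54 to 9.50 on the +dox DMSO arrays and 11.26 to 11.41 on the −dox DMSO arrays. Col1a2, Lum and Thy1 were under the background level in all 4 groups. The part of these markers in the change of Pdgfra and Pdgfrb was not tested.

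Fgfr1, a receptor for fibroblast growth factors, was 7.83, 6.37 and 6.96 in +dox DMSO cells, against 10.18, 8.81 and 8.97 in −dox DMSO cells, a log2 change of -2.27 (SE 0.39, limma adjusted p = 0.0071), or 4.81-fold lower. The groups did not overlap, although replicate 1 was the highest array of both. Without −dox DMSO replicate 1 the change was -1.84 (adjusted p = 0.011), and in a fit of the 6 compared arrays alone the adjusted p was 0.056. Its 2 other probe sets fell by 1.32 (adjusted p = 0.019) and by a measured 1.84 (adjusted p = 0.037) on the log2 scale. The last of these had a +dox DMSO mean of 4.80, under the background level.

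Egfr, the receptor for EGF, TGFα and HB-EGF, was 7.06, 5.92 and 6.31 in +dox DMSO cells, against 7.62, 7.49 and 7.84 in −dox DMSO cells, a log2 change of -1.22 (SE 0.32, limma adjusted p = 0.047). The groups did not overlap, but the adjusted p was close to the threshold, and 11 of 21 alternative settings lost the call. Leaving out replicate 2 or 3 of the +dox DMSO group gave 0.18 or 0.16, and leaving out replicate 3 of the −dox DMSO group gave 0.14. It was 0.053 to 0.082 without +dox trametinib replicate 3, −dox DMSO replicate 1 or 2, or any 1 of the −dox trametinib arrays. For the mean of the 7 Egfr probe sets the fall was 0.36 on the log2 scale (adjusted p = 0.049). Met, the receptor for hepatocyte growth factor, was the only receptor of the 10 to rise with this contrast. It was 11.63, 11.77 and 11.79 in +dox DMSO cells, against 10.65, 11.06 and 11.17 in −dox DMSO cells, a log2 change of 0.77 (SE 0.15, limma adjusted p = 0.014), or 1.71-fold higher. Its change was 0.62 without −dox DMSO replicate 1 (adjusted p = 0.024), and the call was lost without +dox DMSO replicate 2 (0.057) or replicate 3 (0.06), in the 6 compared arrays alone (0.053) and for the mean of its 2 probe sets (0.055).

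The other receptors did not pass the test. Erbb3 differed by 0.46 (95% interval -0.19 to 1.11), Igf1r by -0.27 (-0.88 to 0.34), Axl by 0.22 (-0.24 to 0.69) and Erbb2 by -0.24 (-0.56 to 0.09), and their arrays overlapped between the groups. Without −dox DMSO replicate 1, Igf1r changed sign, to 0.10, and the differences of Erbb3, Axl and Erbb2 were 0.64, 0.11 and -0.09. These intervals leave room for changes of up to about 1 log2 unit in Erbb3 and less in the others. Kit was under the background level, at 3.78 to 3.90 on the +dox DMSO arrays and 3.68 to 3.81 on the −dox DMSO arrays, so that no fold is given. The second Kit probe set had means of 3.07 to 3.76 in the 4 groups, also under the background level.

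Under trametinib fewer receptors passed the test between +dox and −dox cells. Pdgfra alone fell, 1 of 10 receptors, against 3.37% of all genes. It was 6.23, 6.35 and 7.07 in +dox trametinib cells, against 7.75, 8.18 and 7.31 in −dox trametinib cells, a log2 change of -1.20 (SE 0.28, limma adjusted p = 0.042). With the replicate number as a block the adjusted p was 0.055, and the call was lost, with 0 of 10 receptors left. It was also lost without +dox trametinib replicate 1 (0.17) or 2 (0.14), −dox trametinib replicate 1 (0.068) or 2 (0.17), +dox DMSO replicate 3 (0.067) or −dox DMSO replicate 2 (0.058) or 3 (0.063). For the mean of the 3 probe sets the change was -0.72 (adjusted p = 0.047). Pdgfrb differed by -1.19 (SE 0.53, adjusted p = 0.32), with 1 array of each group in the range of the other. Fgfr1 was lower on every +dox trametinib array, at 8.26, 7.82 and 7.99, than on the −dox trametinib arrays, at 8.87, 8.52 and 8.48, but its change of -0.60 had an adjusted p of 0.57. Egfr (-0.13, 95% interval -0.83 to 0.57), Met (-0.05, -0.38 to 0.28), Igf1r (0.18, -0.43 to 0.79), Erbb3 (0.26, -0.39 to 0.91), Axl (-0.26, -0.73 to 0.21) and Erbb2 (-0.27, -0.60 to 0.05) had overlapping arrays. Fibroblast markers were lower here too: Col1a1, Col3a1 and Postn fell, 0 of 8 rose, and the summed level of the list was 10.63 to 10.93 on the +dox trametinib arrays and 13.02 to 13.26 on the −dox trametinib arrays, on the log2 scale.

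**Figure D2:**
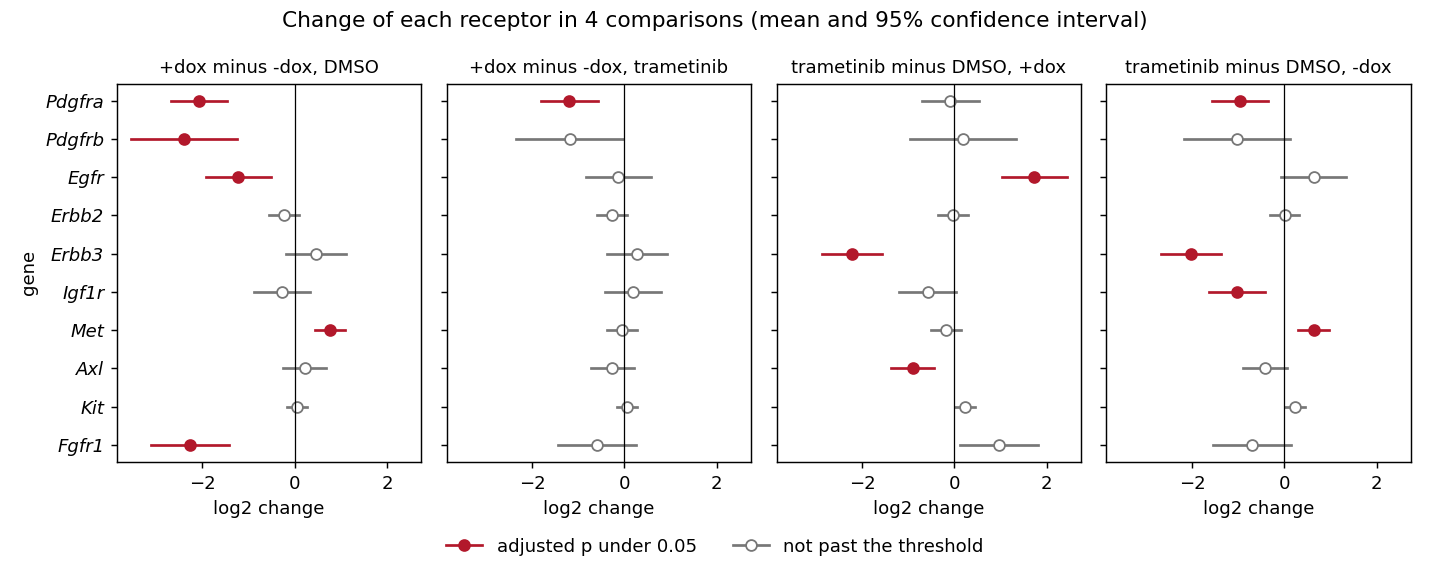
Log2 change (x axis) of each receptor (y axis) in 4 comparisons, as the mean difference with its 95% confidence interval from limma. Filled red points have an adjusted p under 0.05: 5 receptors for dox under DMSO, 1 for dox under trametinib, 3 for trametinib in +dox cells and 4 for trametinib in −dox cells.

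The second question was which receptors respond to 72 h of MEK inhibition in each cell state. In +dox cells Erbb3 and Axl fell and Egfr rose, 3 of 10 receptors, against 26.2% of all genes. In −dox cells Erbb3, Igf1r and Pdgfra fell and Met rose, 4 of 10, against 22.4% of all genes. The share in +dox cells was close to that of all genes, and is no result about receptors as a group. The median change was -0.06 in +dox and -0.56 in −dox cells, against 0.02 and 0.06 over all genes. Arrays did not overlap between drug and DMSO for 5 of 10 receptors in +dox cells, against 40.7% of all genes, and for 7 of 10 in −dox cells, against 35.6%.

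Erbb3, a receptor for neuregulins whose own kinase is weak and which signals by pairing with ErbB2 or EGFR, fell in both cell states. The +dox cells had 4.86, 5.54 and 6.23 on the trametinib arrays, against 7.92, 7.59 and 7.78 on the DMSO arrays, a log2 change of -2.22 (SE 0.30, limma adjusted p = 0.00028), or 4.66-fold lower. The −dox cells had 5.13, 5.15 and 5.56 with trametinib, against 7.65, 6.94 and 7.31 with DMSO, a log2 change of -2.02 (SE 0.30, limma adjusted p = 0.00071), or 4.06-fold lower. In both states every trametinib array was below every DMSO array, and the trametinib levels approached the background level of 4.86. All 21 alternatives kept both calls. The second probe set of Erbb3 was at 3.81 to 3.97 in the group means, under the background level. The mean of the 2 probe sets therefore fell by less, by 1.05 in +dox cells (adjusted p = 0.0016) and by 1.02 in −dox cells (adjusted p = 0.0024). Erbb2, the partner of Erbb3, has 1 probe set on the array and moved little, at 7.52 to 7.60 with trametinib and 7.51 to 7.63 with DMSO in +dox cells, and at 7.55 to 8.00 with trametinib and 7.60 to 8.12 with DMSO in −dox cells. Its changes were -0.03 (95% interval -0.35 to 0.29) and 0.01 (-0.32 to 0.33).

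Egfr went the other way. Its +dox values were 8.73, 7.51 and 8.25 with trametinib, against 7.06, 5.92 and 6.31 with DMSO, a log2 change of 1.73 (SE 0.32, limma adjusted p = 0.002), or 3.33-fold higher, and all 21 alternatives kept the call. Among −dox arrays it was 8.50, 8.01 and 8.37 with trametinib, against 7.62, 7.49 and 7.84 with DMSO. These arrays did not overlap either, but the change of 0.64 (SE 0.32) had an adjusted p of 0.19. It passed in the 6 compared arrays alone (0.042), and the mean of the 7 probe sets rose by 0.34 (adjusted p = 0.022). The trametinib arrays of the 2 cell states overlapped. Of the 7 Egfr probe sets, 3 rose in +dox cells: the one used, another by 1.27 (adjusted p = 0.0055) and another, under the background level in both groups, by 0.56 (adjusted p = 0.03). The 4 others changed by -0.01 to 0.30. Averaged over all 7, Egfr rose by 0.61 (SE 0.09, adjusted p = 0.00073), so the size of the rise depends on the probe set, and which transcripts each one reads was not analysed here.

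**Figure D3:**
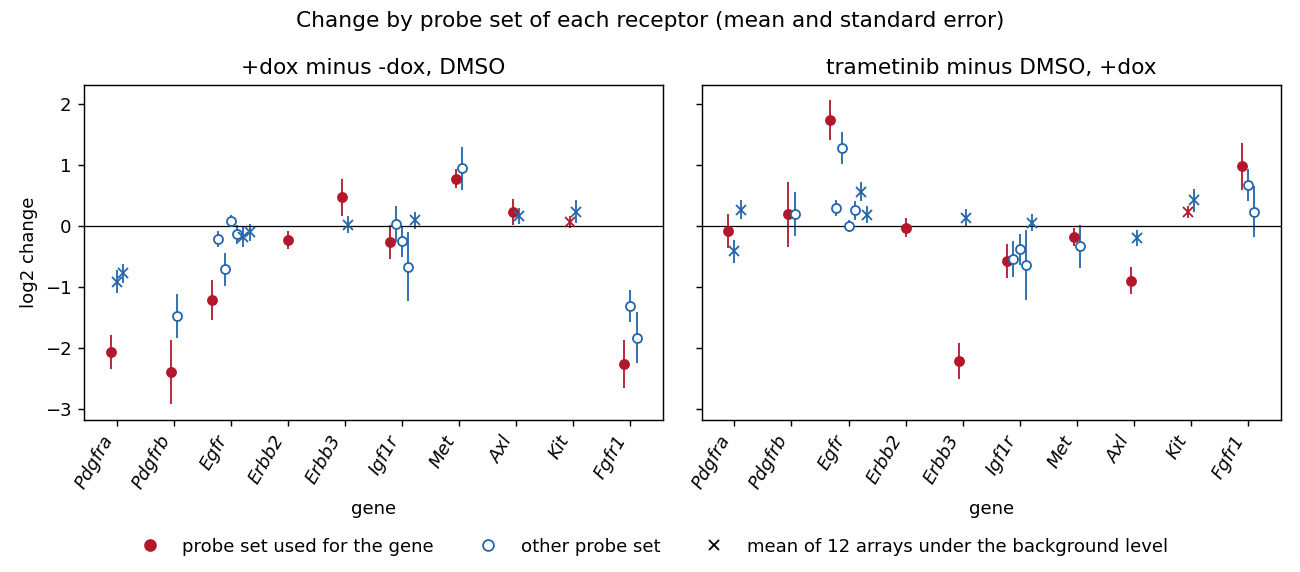
Log2 change (y axis) of every probe set of the 10 receptors (x axis), with its standard error, for dox under DMSO on the left and trametinib in +dox cells on the right. Filled red symbols are the probe sets that stand for the gene, open blue symbols the others, and crosses have a mean of the 12 arrays under the background level of 4.86. All 3 Fgfr1 and all 3 Pdgfra probe sets fall in +dox DMSO cells, while the Egfr probe sets differ among themselves under trametinib.

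Met rose with trametinib in −dox cells. It was 11.84, 11.36 and 11.59 on the trametinib arrays, against 10.65, 11.06 and 11.17 on the DMSO arrays, a log2 change of 0.64 (SE 0.15, limma adjusted p = 0.011), or 1.56-fold higher, and of 0.48 without −dox DMSO replicate 1 (adjusted p = 0.026). In the 6 compared arrays alone the call was lost (0.063). The second Met probe set changed by 0.93 here (adjusted p = 0.095) and by 0.94 with dox under DMSO (adjusted p = 0.18), adjusted over all probe sets, and passed in neither. In +dox cells, where the DMSO arrays already read 11.63 to 11.79, the trametinib arrays were at 11.48 to 11.63, and the change of -0.18 (95% interval -0.51 to 0.15) did not pass. The rise of Met with dox under DMSO and its rise with trametinib in −dox cells share the −dox DMSO arrays, and are not 2 separate observations of those arrays.

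The upstream sequences of Egfr, called higher with trametinib in +dox cells, and of Met, called higher in −dox cells, are printed. They show where letters of ERK-controlled factors stand. They cover 250 bases before the annotated start, 5′ to 3′ on the gene's strand, from RefSeq on GRCm38.p6. Egfr lies at chr11:16751953-16752202 (plus strand) and Met at chr6:17463707-17463956 (plus strand). Capitals mark an ETS match (CCGGAAG or CAGGAAG on either strand) that begins 120 bases before the start of Egfr and an AP-1 match (TGANTCA) that begins 54 bases before the start of Met.
Egfr: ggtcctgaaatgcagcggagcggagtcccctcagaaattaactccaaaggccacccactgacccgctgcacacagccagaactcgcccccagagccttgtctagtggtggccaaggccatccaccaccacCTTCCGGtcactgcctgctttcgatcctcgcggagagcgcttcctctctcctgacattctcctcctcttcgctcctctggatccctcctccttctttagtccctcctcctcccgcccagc
Met: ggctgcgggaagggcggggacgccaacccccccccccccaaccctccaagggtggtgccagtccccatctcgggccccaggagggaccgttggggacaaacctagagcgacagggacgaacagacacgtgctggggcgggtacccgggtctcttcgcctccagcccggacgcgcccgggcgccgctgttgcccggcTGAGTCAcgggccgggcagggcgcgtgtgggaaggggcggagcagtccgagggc
Over 32851 promoters of the same length, 17.0% held an ETS match and 6.7% an AP-1 match. A match is a description of letters and not a bound site. Of the 7 receptors with an entry, the windows of Pdgfra, Erbb2, Igf1r, Axl and Kit held neither motif. Pdgfrb, Erbb3 and Fgfr1 had no entry. An E-box (CACGTG) and a FOXO motif (GTAAACA) were also searched, and are not capitalised. Met held 1 E-box and Axl 1 FOXO match, motifs found in 6.0% and 3.2% of promoters. The part of any motif in the changes was not tested.

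Axl, the receptor for Gas6 that marks de-differentiated melanoma cells, fell in +dox cells. It was 10.47, 11.11 and 11.23 with trametinib, against 11.45, 12.02 and 12.04 with DMSO, a log2 change of -0.90 (SE 0.21, limma adjusted p = 0.0084), or 1.87-fold lower, and all 21 alternatives kept the call. The second Axl probe set was at 3.36 to 3.56 in the group means, under the background level. The mean of both probe sets fell by 0.55 (adjusted p = 0.016). In −dox cells Axl was 11.12, 11.33 and 11.14 with trametinib, against 11.39, 11.67 and 11.78 with DMSO. These arrays did not overlap, but the change of -0.42 (SE 0.21) had an adjusted p of 0.2. Igf1r, the receptor for insulin-like growth factors, showed the reverse arrangement of calls. The −dox cells had 8.98, 8.78 and 9.00 with trametinib, against 10.68, 9.43 and 9.73 with DMSO, a log2 change of -1.03 (SE 0.28, limma adjusted p = 0.021). −dox DMSO replicate 1 held the highest value, and without it the change was -0.66 (adjusted p = 0.032). The call was lost without −dox trametinib replicate 2 (0.067) or replicate 3 (0.051), for the mean of the 5 probe sets (0.057) and in the 6 compared arrays alone (0.071). In +dox cells Igf1r was 9.09, 8.79 and 9.41 with trametinib, against 9.96, 9.51 and 9.56 with DMSO, again with no overlap, and the change of -0.58 (SE 0.28) had an adjusted p of 0.16, or 0.026 without −dox DMSO replicate 1. All 4 Igf1r probe sets above the background level had negative changes in both cell states.

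Pdgfra fell with trametinib in −dox cells, where it was 7.75, 8.18 and 7.31, against 8.59, 8.66 and 8.87 with DMSO, a log2 change of -0.96 (SE 0.28, limma adjusted p = 0.03). The call was lost without −dox trametinib replicate 1 (0.066) or 3 (0.12) and without −dox DMSO replicate 2 (0.062) or 3 (0.092). The mean of its 3 probe sets fell by 0.62 (adjusted p = 0.024). In +dox cells Pdgfra was 6.23 to 7.07 with trametinib and 6.22 to 7.09 with DMSO, and differed by -0.09 (95% interval -0.70 to 0.53). Of 8 fibroblast markers, 3 rose with trametinib in +dox cells and 5 in −dox cells, where Pdgfra fell, and 0 fell in either. Pdgfrb spread over 7.44 to 9.33 with trametinib and 8.89 to 9.98 with DMSO in −dox cells, and its change of -1.02 did not pass (adjusted p = 0.2). In +dox cells it differed by 0.19 (95% interval -0.97 to 1.34).

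The fitted change of Fgfr1 had opposite signs in the 2 cell states. Its +dox values were 8.26, 7.82 and 7.99 with trametinib, against 7.83, 6.37 and 6.96 with DMSO, where 1 DMSO array reached the trametinib range. Its change of 0.97 (SE 0.39) had an adjusted p of 0.092, 0.0085 with the replicate number as a block, 0.029 without −dox DMSO replicate 1 and 0.02 without +dox DMSO replicate 1. With the block, 4 of 10 receptors passed in +dox cells. In −dox cells Fgfr1 was 8.87, 8.52 and 8.48 with trametinib, against 10.18, 8.81 and 8.97 with DMSO, and its change of -0.70 (adjusted p = 0.24) was -0.27 without −dox DMSO replicate 1. Kit stayed under the background level, with group means of 4.05 with trametinib and 3.82 with DMSO in +dox cells. In −dox cells the means were 3.99 with trametinib and 3.76 with DMSO.

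The difference between the 2 drug responses was tested directly, as the change in +dox cells minus the change in −dox cells. None of the 10 receptors passed in limma (0 of 10, against 0.33% of all genes), while 4 had an unadjusted p under 0.05, against 11.6% of all genes. Fgfr1 differed by 1.67 (SE 0.55, adjusted p = 0.24), Egfr by 1.09 (SE 0.45, adjusted p = 0.38), Pdgfra by 0.87 (SE 0.40, adjusted p = 0.43) and Met by -0.82 (SE 0.21, adjusted p = 0.16). Once each array was weighted by limma's estimate of its quality, Met (adjusted p = 0.035) and Fgfr1 (0.033) passed. In the −dox DMSO group these weights were 0.195, 1.204 and 6.981 in replicate order, so that its mean rested mostly on replicate 3. Weighting also raised the count over all genes from 60 to 1066. For Axl (-0.48, 95% interval -1.14 to 0.18) and Igf1r (0.45, -0.42 to 1.31) the interval of the difference included 0, so that a call in only 1 of the cell states does not show that the states respond differently. Erbb3 differed by -0.20 (-1.12 to 0.72). Without −dox DMSO replicate 1 the difference was 1.24 for Fgfr1, -0.67 for Met, 0.08 for Igf1r and -0.38 for Erbb3, and none of these passed.

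Ligands of the receptors were measured for 20 genes, FGFs left out. In +dox against −dox cells under DMSO, 1 rose and 2 fell, with 0 called under trametinib. With trametinib, 2 rose and 3 fell in +dox cells, and 1 rose and 3 fell in −dox cells. Their median changes in these 4 comparisons lay between -0.04 and 0.13, against -0.02 to 0.06 over all genes. Nrg1, the neuregulin that binds ErbB3, was 4.99, 5.34 and 5.20 with trametinib, against 7.23, 7.60 and 7.46 with DMSO in +dox cells, a log2 change of -2.25 (SE 0.27, limma adjusted p = 0.00014). The −dox values were 5.33, 5.25 and 4.57 with trametinib, against 6.92, 5.81 and 6.39 with DMSO, a log2 change of -1.32 (adjusted p = 0.0045). Receptor and ligand were thus both lower with the drug in both cell states. Under DMSO, Nrg1 was higher in +dox cells by 1.06 (adjusted p = 0.041), a call that 10 of 21 alternatives lost, 8 of them by leaving out a single array.

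Gas6, a ligand of Axl, and Pros1, also counted in this list, both fell with dox under DMSO. With trametinib Pros1 rose in both cell states while Gas6 fell in −dox cells. An action of Pros1 through Axl was not tested. Gas6 fell with dox under DMSO, at 8.85, 7.49 and 7.62 in +dox DMSO cells, against 11.11, 9.73 and 10.67 in −dox DMSO cells, a log2 change of -2.52 (SE 0.41, limma adjusted p = 0.0053). It also fell with trametinib in −dox cells, to 7.98, 7.97 and 8.84, by 2.24 on the log2 scale (adjusted p = 0.0024), and was 7.29 to 7.54 in +dox trametinib cells. Pros1, which encodes protein S, was 8.81, 8.01 and 8.05 in +dox DMSO cells, against 9.40, 9.12 and 9.28 in −dox DMSO cells (log2 change -0.98, adjusted p = 0.031), a call that 6 of 21 alternatives lost. It rose with trametinib in +dox cells, at 10.55, 9.73 and 10.03 with the drug, against 8.81, 8.01 and 8.05 with DMSO (log2 change 1.81, adjusted p = 0.00021). Its −dox values were 10.67, 10.58 and 10.65 with the drug, against 9.40, 9.12 and 9.28 with DMSO (log2 change 1.37, adjusted p = 0.0015). Hbegf, a ligand of EGFR and a known target of ERK, fell in +dox cells, at 8.25, 8.35 and 8.54 with trametinib, against 9.68, 10.07 and 11.01 with DMSO (log2 change -1.87, adjusted p = 0.0084), where Egfr itself rose. Of the PDGF ligands, Pdgfc rose by 1.18 (adjusted p = 0.019) and Pdgfa fell by 0.81 (adjusted p = 0.029) with trametinib in +dox cells. These calls were lost in 3 and 5 of 21 alternatives.

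**Figure D4:**
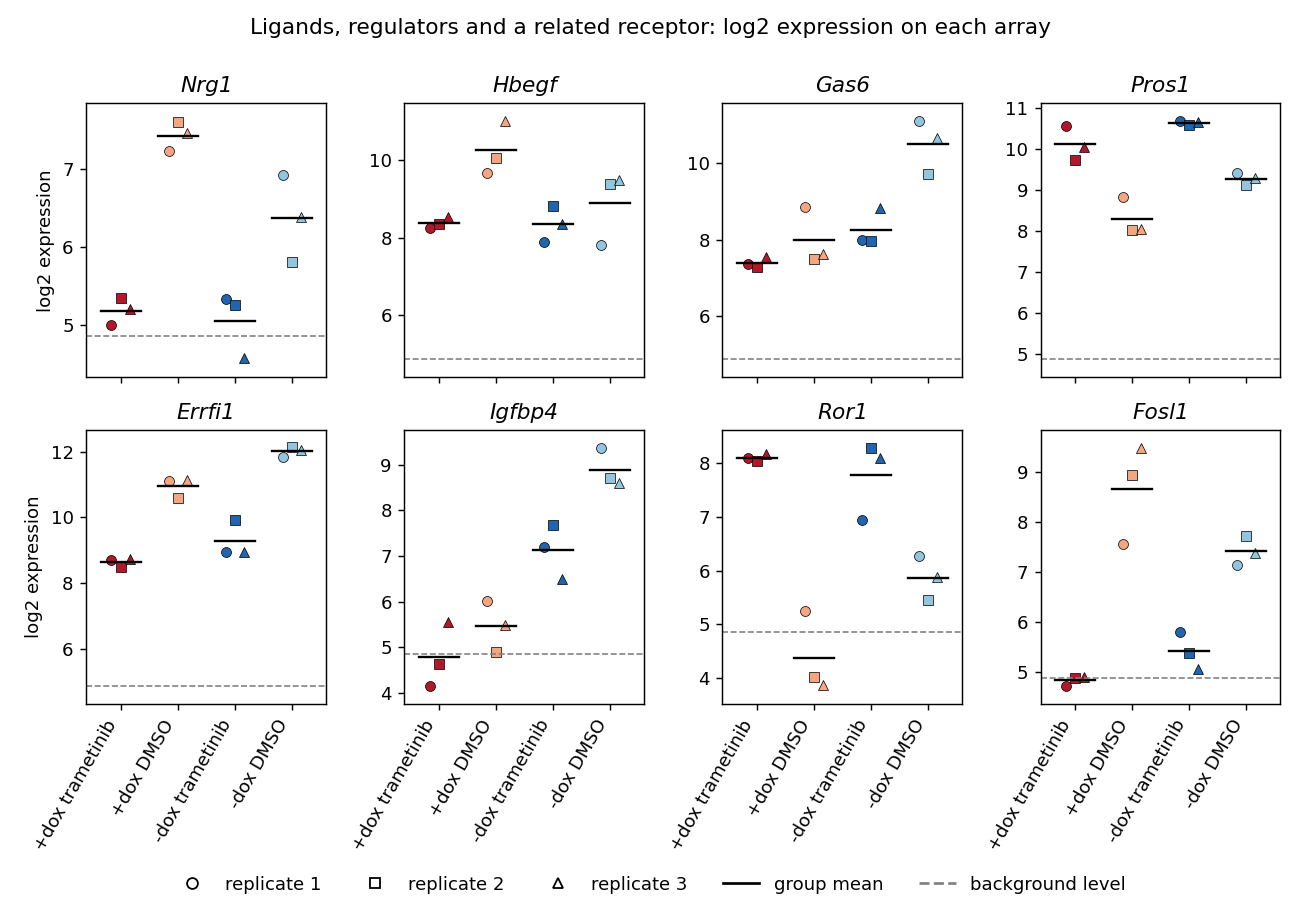
Log2 expression of 4 ligands (Nrg1, Hbegf, Gas6, Pros1), 2 negative regulators (Errfi1, Igfbp4), the receptor Ror1 and the AP-1 subunit Fosl1 on each of the 12 arrays, by group (x axis), with bars at group means and a dashed line at the background level of 4.86. Nrg1, Errfi1 and Fosl1 are lower with trametinib than with DMSO in both cell states, and Pros1 and Ror1 are higher.

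Among 22 genes listed as negative regulators, 5 fell and 0 rose with dox under DMSO, and 3 fell under trametinib. They include phosphatases, ubiquitin ligases, sheddases with their inhibitors, and proteins that bind the ligands. As sheddases stand beside their inhibitors, counts over this list mix opposing roles. With trametinib, 6 rose and 2 fell in +dox cells, and 6 rose and 4 fell in −dox cells. The medians lay between -0.12 and 0.29. Errfi1 (Mig6), which binds and blocks the kinase domain of ErbB receptors and is switched on by ERK, had the largest fall of the list with the drug in both states. It was 8.69, 8.50 and 8.72 with trametinib, against 11.12, 10.59 and 11.13 with DMSO in +dox cells, a log2 change of -2.31 (SE 0.24, limma adjusted p = 7.1e-05). The −dox arrays gave 8.93, 9.92 and 8.95 with trametinib, against 11.85, 12.13 and 12.05 with DMSO, a change of -2.74 (adjusted p = 4.8e-05). Errfi1 was also lower with dox under DMSO, with a log2 change of -1.06 (adjusted p = 0.028), a call that 4 of 21 alternatives lost. Socs5, a suppressor that promotes EGFR turnover, fell by 1.53 in +dox cells (adjusted p = 0.00015). It fell in −dox cells too, with a mean of 9.35 with trametinib against 10.48 with DMSO (limma adjusted p = 0.0012). Cblb, a ubiquitin ligase of activated receptors, rose by 1.11 in +dox cells (adjusted p = 0.0028). Timp2 and Timp3, inhibitors of metalloproteases such as those that cut receptors and ligands from the membrane, rose by 1.00 and 0.72 with trametinib in +dox cells. In −dox cells Timp1, Timp2 and Timp3 rose by 0.92, 0.93 and 0.64. The Timp3 call was lost in 6 of 21 alternatives in +dox cells and in 12 in −dox cells. The sheddases Adam10 and Adam17 rose as well. In +dox cells their means were 11.40 and 9.51 with trametinib, against 10.74 and 8.84 with DMSO (limma adjusted p = 0.00098 and 0.0013). All 21 alternatives kept both calls. In −dox cells the means were 11.71 and 9.53, against 11.35 and 9.16 (adjusted p = 0.036 and 0.043). These calls were lost in 8 and 13 of 21 alternatives. Timp2 fell with dox under DMSO, with a log2 change of -0.87 (adjusted p = 0.029), which 6 of 21 alternatives lost. With dox under trametinib Timp1 (-0.67, adjusted p = 0.028) and Igfbp7 (-0.85, adjusted p = 0.017), which binds insulin-like growth factors weakly, fell, and 5 and 4 of 21 alternatives lost these calls. Ptprj, a receptor phosphatase, fell by 1.32 in −dox cells (adjusted p = 0.012). Igfbp4, which binds insulin-like growth factors, had the largest change with dox under DMSO in all the lists of receptors, ligands, regulators and factors. It was 6.02, 4.89 and 5.49 in +dox DMSO cells, against 9.37, 8.70 and 8.60 in −dox DMSO cells, a log2 change of -3.42 (SE 0.41, limma adjusted p = 0.00099). Under trametinib its mean in +dox cells was below the background level, and its fall was at least 2.27 log2 units (adjusted p = 0.0097). With trametinib in −dox cells Igfbp4 changed by -1.76 (adjusted p = 0.01).

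Of 29 other receptor tyrosine kinases, Eph receptors left out, few passed the test: Kdr rose and Flt1 fell with dox under DMSO, the first a call that leaving out any 1 of 11 arrays ended, and 0 were called under trametinib. With the drug, 3 rose and 1 fell in +dox cells, and 2 rose and 2 fell in −dox cells, shares below those of all genes. The medians lay between -0.03 and 0.08. Ror1, a Wnt5a receptor, was 8.09, 8.03 and 8.16 with trametinib, against 5.25, 4.02 and 3.87 with DMSO in +dox cells. The DMSO mean was under the background level, so the rise was at least 3.23 on the log2 scale (limma adjusted p = 7.8e-05). The −dox values were 6.93, 8.27 and 8.09 with trametinib, against 6.27, 5.45 and 5.88 with DMSO, a log2 change of 1.90 (SE 0.40, adjusted p = 0.0057). The collagen receptor Ddr1 rose by 0.56 in +dox cells (adjusted p = 0.033, lost in 5 of 21 alternatives) and by 0.78 in −dox cells (adjusted p = 0.008). Ddr2, also a collagen receptor, rose by 0.71 in +dox cells (adjusted p = 0.00037). Flt1, a VEGF receptor, fell by 0.47 in +dox and 0.89 in −dox cells, the first a call that 4 of 21 alternatives lost. Ptk7, a pseudokinase of Wnt signalling, fell by 2.09 in −dox cells (adjusted p = 0.0086).

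Downstream of the receptors, 16 adaptors and effectors were measured, with medians between -0.17 and 0.19. Of these, 2 rose and 2 fell with dox under DMSO and 0 were called under trametinib, while 3 rose and 2 fell with the drug in each cell state. With dox under DMSO, Pik3cb (1.26) and Gab2 (0.94) rose, and the PI3K regulatory subunits Pik3r1 (-0.93) and Pik3r2 (-0.58, lost in 7 of 21 alternatives) fell. With trametinib, Pik3r1 (log2 change 1.40, adjusted p = 0.00018) and the docking protein Gab1 (1.15, adjusted p = 0.0016) rose in +dox cells, and Gab2 (1.07, adjusted p = 0.00056) rose in −dox cells. The adaptor Grb2 rose by 0.38 in +dox and 0.37 in −dox cells, and Shc1, which docks at phosphorylated receptors, fell by 0.55 in +dox and 0.85 in −dox cells. The Grb2 calls were lost in 4 and 6 of 21 alternatives, and the Shc1 call in +dox cells in 6. The kinase Src fell in +dox cells (-0.79, adjusted p = 0.003). In −dox cells the phosphatase Ptpn11 (SHP2), which links receptors to RAS, rose (0.49, adjusted p = 0.013), and Irs2, the docking protein of the insulin and IGF1 receptors, fell (-0.63, adjusted p = 0.028, lost in 5 of 21 alternatives). Of 14 transcription factors known to control receptor genes, 2 rose and 1 fell with the drug in each cell state, and 0 rose and 1 fell with dox under either treatment (medians between -0.22 and 0.13). Fosl1, an AP-1 subunit that ERK induces, was 4.72, 4.88 and 4.89 with trametinib, against 7.55, 8.94 and 9.48 with DMSO in +dox cells, a fall of at least 3.80 log2 units (limma adjusted p = 5.7e-05). It also fell in −dox cells, with a log2 change of -2.00 (SE 0.39, adjusted p = 0.0037). Foxo1, which raises receptor genes such as ERBB3 and IGF1R in human cells when AKT is blocked, rose by 0.76 in +dox cells (adjusted p = 0.0015) and by 0.50 in −dox cells (adjusted p = 0.018). Mitf, the regulator of melanocyte identity, rose by 1.22 in +dox cells (adjusted p = 0.0077). Zeb1, a repressor of epithelial genes, rose by 0.44 in −dox cells (adjusted p = 0.011), but the mean of its probe sets gave -0.0525 (adjusted p = 0.89). Zeb2, of the same family, fell with dox by 0.71 under DMSO (adjusted p = 0.042) and by 0.88 under trametinib (adjusted p = 0.023). These calls were lost in 10 and 7 of 21 alternatives, leaving out any 1 of 7 and of 5 arrays among them, and the mean of its probe sets gave -0.32 (adjusted p = 0.24) and -0.51 (0.076).

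The pattern over the 12 arrays was also set against all 12485 genes above the background level in at least 1 group, by the root-mean-square difference between mean-centred values. For Pdgfra the closest genes were Cd82 (0.324) and Gas1 (0.356), against a spread of Pdgfra itself of 0.94. Pdgfrb ranked 34th among the neighbours of Pdgfra (0.484), and Pdgfra ranked 9th among those of Pdgfrb. For Egfr they were Ramp3 (0.265) and Nr3c2 (0.300), for Erbb3 Per2 (0.320) and Lpar6 (0.323), and for Fgfr1 Spsb1 and Cp (0.380 each). For Met they were Pfn2 (0.137) and Acot9 (0.145), for Axl Fam219b (0.128) and Gtf3a (0.153), for Igf1r Aasdh (0.119) and Gm32031 (0.149), and for Pdgfrb Cbr2 (0.387) and Fzd6 (0.399). Erbb2, nearly flat with a spread of 0.198, was closest to Nfic and Wipf2 (0.083 each). These are likenesses between values of the same 12 arrays and carry no test.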

How the data were processed

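RNA of C790 cells was labelled with biotin and hybridised to 12 Affymetrix mouse genome arrays, 3 per group. The deposited values, log2 intensities per probe set, were made by the authors with RMA in Chipster, which corrects background, makes the array distributions equal and summarises probes, so that shifts common to most genes are removed. They were used as deposited. Of 45101 probe sets, 34945 with 1 gene were kept, and 64 control probe sets, 932 with several genes and 9160 with none were left out. A gene was read from its probe set with the highest mean, which gave 18193 genes. No filter on low values was applied. There are no detection calls: the background level of 4.86 is the 95th percentile of 86 chemosensory receptor probe sets. Where 1 group mean of the probe set used for a gene is under it, only the gap to the higher mean is given, as a lower bound. Other probe sets of the receptors are given with their measured change, with a mention where they lie under the level. The number of arrays limits the precision.

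Groups came from the labels. limma 3.58.1 in R 4.3.3 (lmFit, eBayes) fitted a mean per group over 12 arrays, with Benjamini-Hochberg adjustment over all genes of a comparison and calls at an adjusted p under 0.05. Replicates of the same number deviated together from their group means in 3 comparisons, where every pair had a correlation over 0.1: 0.17 to 0.344 for dox under DMSO, 0.212 to 0.286 for dox under trametinib, and 0.16 to 0.451 for the drug in +dox cells. There the numbers were read as possible pairs, a reading that no label states, and a blocked value is printed where it alters a call. For the drug in −dox cells (0.022 to 0.456) they were not, as replicate 3 was under 0.1. The same numbers run through all 4 groups, so this split by comparison is a convention, and pairing is not settled for any comparison. All main values and counts come from the fit without a block.

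The receptors and gene lists were chosen with earlier results of these data known. The text names the 10 receptors, per list up to 3 called rises and 3 called falls of each comparison above the background level, and the 2 genes closest to each receptor. Adam10 and Adam17 are named in addition, beside the inhibitors of sheddases. The 21 alternatives for single genes included the replicate block, the compared arrays alone, the mean of probe sets and probe sets one by one. The others were genes above the background level, further quantile normalisation, median centring, array weights, trended robust eBayes and leaving out each array. A fold over 2 and an adjusted p under 0.01 were applied to counts only. Other background percentiles were applied only to the number of receptors above the background level. The fit was tested on simulated data. Figures used matplotlib 3.10.9 in Python 3.11.15.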

Additional observations from a re-analysis of the deposited data

How the results depend on the processing

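Over 1045 values of single receptors under 21 alternatives, 992 kept their side of the threshold, 39 lost a call, 14 gained one and 0 reversed. A reversal was a change of sign with a call in either setting. Sign changes of values that were not called, such as Igf1r with dox under DMSO (-0.528 to 0.097), therefore count among the 992. Pdgfra with dox under DMSO, Erbb3 with trametinib in both cell states, and Egfr and Axl with trametinib in +dox cells kept their calls in all 21. Of 1468 values of list genes 184 lost the call and 1 reversed: Zeb1 with trametinib in −dox cells (0.44) was -0.0525 for the mean of its probe sets (the cause was not tested). Leaving out a single array ended list calls most often for Kdr with dox under DMSO (11 arrays) and for Timp3 (10), Adam17 (9) and Lrig3 (9) with trametinib in −dox cells.

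The number of receptors called with dox under DMSO (5) was 2 in the compared arrays alone and 2 at an adjusted p under 0.01, and 2 to 5 when an array was left out. With dox under trametinib (1) it was 0 with the replicate block, in the compared arrays alone, for probe sets one by one and at 0.01, and 0 to 1 without an array. With trametinib in +dox cells (3) it was 3 to 5 without an array. In −dox cells (4) it was 7 with the replicate block, where Egfr, Axl and Fgfr1 joined. There, as in the other comparisons, the pairing was not established. It was 2 at a fold over 2, 1 at 0.01, and 2 to 4 without an array. The difference of responses (0) gave 2 with array weights and 0 to 0 without an array.

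Over all genes, the count with dox under DMSO (1118) was 550 in the compared arrays alone, 4086 with array weights, 474 at a fold over 2, 366 at 0.01 and 465 to 1297 without an array. With dox under trametinib (614) it was 1427 with array weights, 358 at a fold over 2, 248 at 0.01 and 295 to 964 without an array. With trametinib it was 7684 for probe sets one by one, 1754 at a fold over 2, 3090 at 0.01 and 3605 to 5652 without an array in +dox cells (4772), and 7131 with array weights, 6554 for probe sets one by one, 1380 at a fold over 2, 2230 at 0.01 and 2883 to 4144 without an array in −dox cells (4072). For the difference (60) it was 141 with the replicate block, 1066 with array weights, 11 at 0.01 and 13 to 200 without an array. Counts at a fold over 2 or at 0.01 are smaller by construction and those of probe sets count more features. The other causes were not tested. Beside the receptors named here and Fgfr1 with trametinib in +dox cells, the block changed the call of no receptor and ended no list gene's call.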

Other observations

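Pdgfra, Kit and Kdr lie next to each other on mouse chromosome 5, in this order among protein-coding genes. Of the 3, Pdgfra fell with dox under DMSO (-2.07), Kdr, at 5.33 to 5.59 in +dox DMSO cells and 4.86 to 5.16 in −dox DMSO cells, rose by 0.41 (limma adjusted p = 0.049), and Kit was under the background level in both groups. Pdgfrb lies next to Csf1r on chromosome 18.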
